A study of Mus musculus with 16 samples.

Results

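The genes of the neurofilaments, the filaments that fill large axons, were followed in the brains of mice with a frameshift in Tecpr2. The set held 5 genes, chosen by name: Nefl, Nefm and Nefh, which code for the light, medium and heavy neurofilament subunits, Ina, which codes for alpha-internexin, and Prph, which codes for peripherin. Each was found as 1 row among the 55404 genes of the table, by matching its Ensembl identifier to its symbol, and all 5 were among the 23244 genes with values high enough to test.

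The study compared homozygous Tecpr2 knock-in mice, termed Tecpr2 ki/ki, with wt/wt controls. The knock-in allele is the frameshift L1152fs, made with CRISPR/Cas9 in mice of the C57BL/6J strain. Total RNA of the whole brain was sequenced from 8 males of each genotype at 5 months of age, with 1 library per mouse, so that neurons with large axons were measured together with all other brain cells. The values are normalised read counts per gene, rounded to whole numbers by the authors.

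Neurofilaments are heteropolymers built in the cell body and carried slowly along the axon, where they set axonal diameter and so the speed of conduction. The light subunit is needed for assembly, the medium and heavy subunits carry long phosphorylated tails that project from the filament, alpha-internexin joins them in central neurons, and peripherin is best known from peripheral, sensory and motor neurons. Filament proteins gather in the swollen axons of several neuroaxonal dystrophies, and the light chain that leaks from damaged axons is measured in blood and cerebrospinal fluid as a sign of axonal injury.

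Positions are given on GRCm38, which the annotation at hand uses, whereas reads were aligned to the newer GRCm39. On GRCm38, Nefl lies on chromosome 14 from 68083863 to 68089095 on the plus strand. Nefm is its neighbour on the minus strand, from 68082590 to 68124846, because 1 of its 2 annotated transcripts reaches across Nefl. Its exons cover 1108 bases, or 32.8%, of the Nefl transcript on the other strand. Nefh lies on chromosome 11 from 4938754 to 4948064 (minus strand), Ina on chromosome 19 from 47014698 to 47025327 (plus strand), and Prph on chromosome 15 from 99055174 to 99058978 (plus strand). The transcript of Ina shares 456 bases, or 14.1%, with exons of Nt5c2 on the other strand. Libraries were stranded, but whether strand was used in counting was not given in the sources used here. Reads of such overlapping stretches could therefore not be assigned to 1 gene with certainty.

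The tails of the medium and heavy subunits hold lysine-serine-proline repeats, the sites at which kinases add phosphate. Read in frame, the coding sequence of Nefh held 51 such codon triplets among 1090 codons and that of Nefm held 4 among 848, while those of Nefl, Ina and Prph held 0. The 150-base stretch of Nefh with most of them, from base 1549 to base 1698 counted from the first base of the start codon, is shown because the heavy chain is known for this tail. Capitals mark the 8 lysine-serine-proline triplets.
Nefh: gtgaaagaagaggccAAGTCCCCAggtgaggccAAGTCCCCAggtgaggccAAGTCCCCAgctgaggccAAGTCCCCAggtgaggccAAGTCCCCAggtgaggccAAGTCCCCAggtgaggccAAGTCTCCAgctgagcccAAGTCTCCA

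In the Nefh transcript, 8.63% of all 31-base words and 1.13% of 100-base words occurred more than once, all inside the same gene, and no other member had a repeated word of either length. Intermediate filament proteins share a conserved rod, so the coding sequences of the members were also compared with each other, to see whether reads could fall on the wrong gene. The windows shown for Nefh (coding bases 1157 to 1216) and Ina (coding bases 1145 to 1204) matched at 54 of 60 bases, and capitals mark the bases that differ.
Nefh: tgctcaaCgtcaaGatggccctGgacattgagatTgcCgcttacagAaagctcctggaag
Ina: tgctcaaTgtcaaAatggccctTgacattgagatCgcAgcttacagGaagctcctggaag

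Across the 10 pairs of members, the best window matched at 83.3% to 91.7% of bases and the longest identical run was 35 bases, between Nefm and Prph. Read in the direction of each transcript, none of the 5 shared a 100-base word with another gene. At 31 bases, 0.15% of the words of Nefm and 0.6% of those of Prph did. Words on the opposite strand were not compared, so the overlaps of Nefl with Nefm and of Ina with Nt5c2 are not counted here.

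The targeted gene was low in every mouse of the mutant genotype. Its values were 274 to 320 in the 8 homozygotes against 928 to 1002 in the 8 controls, and Tecpr2 had a log2 fold change of -1.68 (SE 0.036, limma adjusted p = 2.16e-47). Values summed to 11964284 to 12252324 per mouse, and each library held an estimated 9.23 to 15.39 megareads on genes. Over all genes tested, 31 passed an adjusted p under 0.1 in limma, or 0.133%. Of these, 22 (0.0946%) were higher and 9 (0.0387%) lower in the mutant, and the median log2 fold change of all genes tested was -0.00098.

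No neurofilament gene passed that threshold, 0 of 5 had an unadjusted limma p under 0.05 (6.08% of all genes tested did), and the values of the 2 genotypes overlapped for each of the 5 (they did not overlap for 0.086% of all genes tested). Group means (n = 8 mice per genotype throughout) were lower in Tecpr2 ki/ki mice for all 5 genes, with a difference of -2.96% for Nefl, -3.09% for Nefm, -2.88% for Nefh, -1.0% for Ina and -16.8% for Prph. Among all genes tested 50.5% had a log2 fold change below 0, and among the 4892 genes with a mean value of at least 500 the share was 60.3%. A direction below 0 was thus common among abundant genes. In RNA of whole tissue, fewer cells of a type and less RNA per cell cannot be told apart, so each value is a level per brain RNA and not per neuron.

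**Figure D1:**
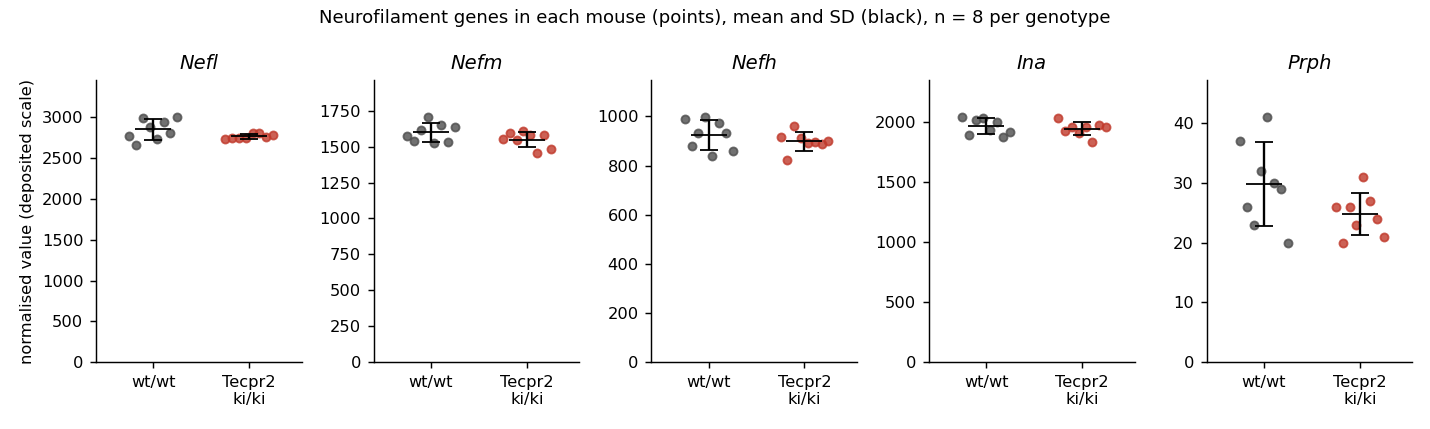
Normalised value of each neurofilament gene (y axis, each panel on its own scale from 0) in wt/wt (grey) and Tecpr2 ki/ki mice (red); points are mice, black marks the mean and SD, n = 8 per genotype. The 2 genotypes overlap in every panel, and Nefl values of Tecpr2 ki/ki mice lie close together, between 2732 and 2805.

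Nefl, whose product is the core subunit of the filament, had normalised values of 2732 to 2805 with a median of 2750 in Tecpr2 ki/ki mice. In wt/wt mice Nefl ranged from 2654 to 3002 with a median of 2838.5. All 8 Tecpr2 ki/ki mice lay below the wt/wt median, 4 wt/wt mice lay above every Tecpr2 ki/ki mouse and 1 lay below every one. The means were 2761.5 ± 29.6 and 2845.6 ± 126 (SD, n = 8 each), and the log2 fold change was -0.042 (SE 0.022, 95% confidence interval -0.085 to 0.0011, limma adjusted p = 0.837). This interval spans a change from -5.74% to 0.0731%. The exact two-sided permutation test over mice gave p = 0.0937 for Nefl, where the smallest value it can give is 0.000155.

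The Tecpr2 ki/ki mice lay close together in Nefl. The SD of this gene was 4.27 times as large in wt/wt as in Tecpr2 ki/ki mice, and this was seen only after the values had been looked at. Over the 2571 genes with a mean value of at least 1000, the median of this SD ratio was 1.01, and 1 gene, Nefl itself, reached 4.27. As the highest of 2571 ratios it was not tested. Relative to the mean, 12 of these genes, Nefl among them, had an SD in Tecpr2 ki/ki mice at or below that of Nefl. The counting error of Nefl alone corresponds to an SD of 53.6 in Tecpr2 ki/ki and 52.2 in wt/wt mice, so the Tecpr2 ki/ki values lay closer together than counting error and the wt/wt values farther apart. No other member stood out in this way, with SD ratios of 1.19 for Nefm, 1.597 for Nefh, 1.18 for Ina and 1.97 for Prph.

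Nefm, the medium subunit, had normalised values of 1452 to 1607 (median 1565) in Tecpr2 ki/ki mice and of 1528 to 1708 (median 1595.5) in wt/wt mice. The ranges overlapped broadly, with 2 Tecpr2 ki/ki mice below all wt/wt mice and 4 wt/wt mice above all Tecpr2 ki/ki mice. Nefm means were 1548.5 ± 54.5 and 1597.9 ± 64.8 (SD, n = 8 each). Its log2 fold change was -0.045 (SE 0.026, 95% confidence interval -0.097 to 0.0069, limma adjusted p = 0.877). The exact permutation test gave p = 0.125.

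Nefh, the heavy subunit, which is the last of the triplet to rise as axons mature, had normalised values of 823 to 960 (median 898.5) in Tecpr2 ki/ki mice and 839 to 999 (median 932.5) in wt/wt mice. A single Tecpr2 ki/ki mouse lay below all wt/wt mice, and 3 wt/wt mice lay above all Tecpr2 ki/ki mice. The Nefh means of 898.6 ± 38.1 and 925.3 ± 60.9 (SD, n = 8 each) gave a log2 fold change of -0.04 (SE 0.033, 95% confidence interval -0.11 to 0.026, limma adjusted p = 0.911). For Nefh the exact permutation test gave p = 0.329.

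Ina, the subunit of central neurons, differed least. Its normalised values were 1839 to 2038 (median 1959) in Tecpr2 ki/ki mice and 1880 to 2047 (median 1969) in wt/wt mice, so that 1 Tecpr2 ki/ki mouse was below and 2 wt/wt mice were above the range of the other genotype. The means of Ina were 1947 ± 57.3 and 1966.8 ± 67.5 (SD, n = 8 each). The log2 fold change was -0.014 (SE 0.024, 95% confidence interval -0.062 to 0.033, limma adjusted p = 0.968), and the exact permutation p was 0.539.

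Prph was scarce in whole brain. Its normalised values were 20 to 31 (median 25) in Tecpr2 ki/ki mice and 20 to 41 (median 29.5) in wt/wt mice, which correspond to 16 to 37 and 17 to 45 reads per library. The Prph means were 24.8 ± 3.54 and 29.8 ± 6.96 (SD, n = 8 each), and 3 wt/wt mice lay above all Tecpr2 ki/ki mice. The log2 fold change of -0.24 had a wide interval (SE 0.15, 95% confidence interval -0.53 to 0.064, limma adjusted p = 0.89), and the exact permutation p was 0.11. The SD of Prph was 3.54 against a counting error of 5.05 in Tecpr2 ki/ki mice and 6.96 against 5.29 in wt/wt mice, and changes from -30.9% to 4.54% lay inside the interval at this depth.

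**Figure D2:**
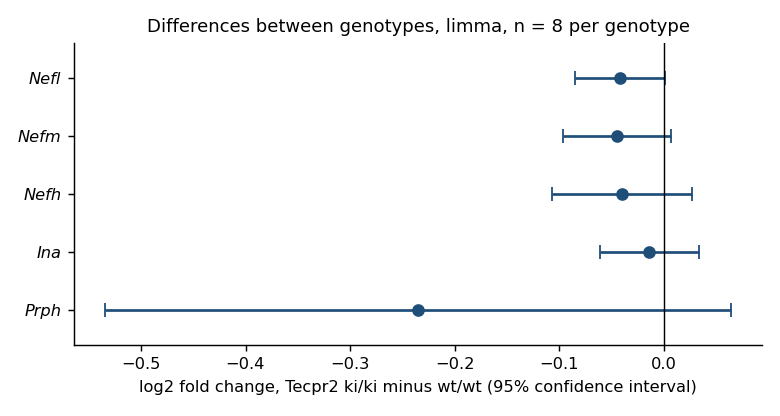
Log2 fold change of Tecpr2 ki/ki minus wt/wt mice (x axis) for the 5 genes (y axis) from limma, with 95% confidence intervals as bars and a line at 0. Each interval includes 0, and that of Prph, from -0.53 to 0.064, is the widest.

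**Figure D3:**
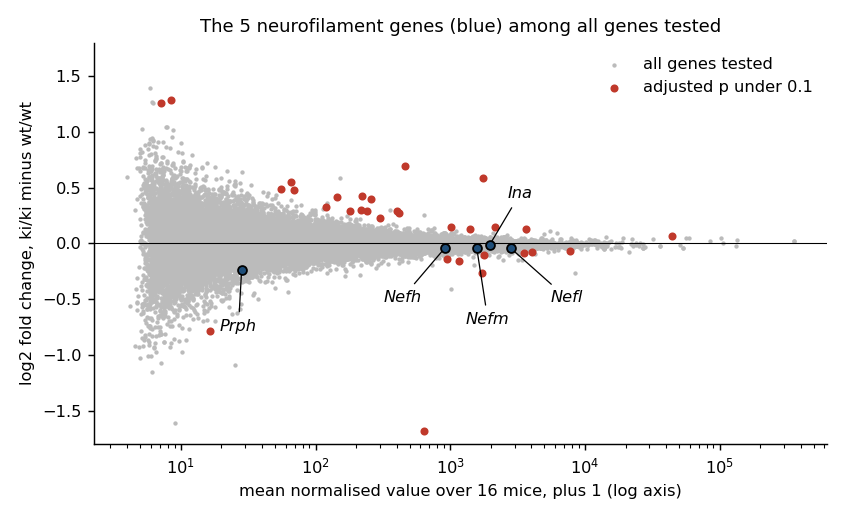
Log2 fold change of Tecpr2 ki/ki minus wt/wt mice (y axis) against mean normalised value plus 1 over 16 mice (log x axis) for all 23244 genes tested (grey), the 31 genes at an adjusted p under 0.1 (red) and the 5 neurofilament genes (blue). The neurofilament genes lie inside the cloud of all genes, Nefl, Nefm, Nefh and Ina at -0.045 to -0.014 and Prph, which is scarcer, at -0.24.

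In percent, the 95% interval of Nefm reached from -6.5% to 0.479%, that of Nefh from -7.16% to 1.84% and that of Ina from -4.18% to 2.3%. A p that misses the threshold does not show that the values did not differ, and small differences lay inside every interval.

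Levels of different members were compared per length, as the normalised value divided by the length of the principal transcript in kilobases. These transcripts are 3380 bases for Nefl, 3334 for Nefm, 3994 for Nefh, 3240 for Ina and 1863 for Prph. Nefl had the highest level per kilobase, 829 ± 29.2 (SD, n = 16 mice), followed by Ina with 604 ± 18.9, Nefm with 472 ± 19.0, Nefh with 228 ± 12.8 and Prph with 14.6 ± 3.18. The order was the same in 16 of 16 mice, and no 2 neighbours in it overlapped: the lowest Nefl level per kilobase was 785 against a highest Ina level of 632, and the lowest Ina level was 568 against a highest Nefm level of 512. Per length, Nefl exceeded Ina by 1.37 ± 0.0563 times, Ina exceeded Nefm by 1.281 ± 0.0449 times, Nefm exceeded Nefh by 2.07 ± 0.119 times and Nefh exceeded Prph by 16.2 ± 2.89 times (SD, n = 16). With the union of all annotated exons as length, which lengthens Nefm to 5782 bases, the order held in 16 of 16 mice, but Ina then exceeded Nefm by 2.22 ± 0.0779 times and Nefm exceeded Nefh by 1.19 ± 0.0688 times.

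**Figure D4:**
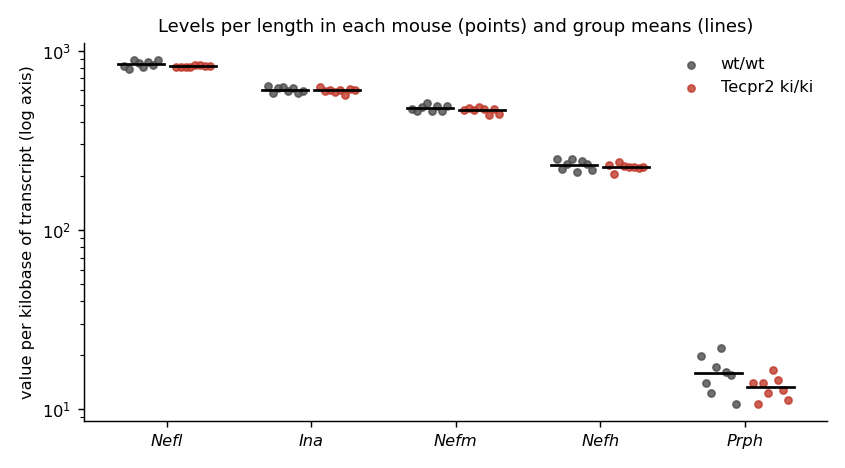
Normalised value per kilobase of principal transcript (log y axis) of the 5 genes, ordered by level, in wt/wt (grey) and Tecpr2 ki/ki mice (red); points are mice and lines are group means. Nefl, Ina, Nefm and Nefh form separate steps in all 16 mice, and Prph lies 16.2 times below Nefh.

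The make-up of the neurofilament pool was close in the 2 genotypes. Of the summed level per kilobase of the 5 genes, Nefl took 38.5% ± 0.749 in Tecpr2 ki/ki and 38.7% ± 0.999 in wt/wt mice, and Ina took 28.3% ± 0.574 and 27.9% ± 0.602 (SD, n = 8 each). Nefm took 21.9% ± 0.651 and 22.03% ± 0.393, Nefh took 10.6% ± 0.418 and 10.6% ± 0.531, and Prph took 0.626% ± 0.0872 and 0.736% ± 0.18. Each of these differences was smaller than the larger of the SDs beside it. The shares depend on the lengths used: over all 16 mice, the share of Nefm was 21.96% with the principal transcript and 13.97% with the union of annotated exons. Within a mouse, the log2 ratio of Nefl to Nefm values was 0.83 ± 0.062 and 0.83 ± 0.046, and that of Nefl to Nefh values was 1.62 ± 0.066 and 1.62 ± 0.1, in Tecpr2 ki/ki and wt/wt mice (SD, n = 8 each). For the pairs without Prph, the mean log2 ratio differed between genotypes by at most 0.031 in size, for Nefm to Ina (-0.33 ± 0.052 against -0.30 ± 0.047).

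The deviations of single mice were compared between neurofilament genes. Over the 16 mice, after subtracting each genotype's mean from log2(value + 1), the Pearson r was 0.55 for Nefh and Ina (Spearman rho 0.62), 0.53 for Nefm and Ina (rho 0.35) and 0.43 for Nefl and Nefm (rho 0.41). For the other pairs of the 4 abundant members it was 0.16 for Nefl and Nefh, 0.20 for Nefl and Ina and 0.26 for Nefm and Nefh. These values describe 16 mice, whose deviations also share each library's depth and scaling, and are given without a test. Without the 2 mice farthest from the median of the first gene named, r was 0.60 for Nefh and Ina, 0.28 for Nefm and Ina and 0.31 for Nefl and Nefm. Within a genotype of 8 mice the values differed. Of the 6 pairs of abundant members, 0 had an r below 0 in wt/wt mice and 4 did in Tecpr2 ki/ki mice. For Nefl and Nefm, r was 0.72 in wt/wt and -0.60 in Tecpr2 ki/ki mice, for Nefl and Ina 0.38 and -0.52, for Nefl and Nefh 0.22 and -0.13, and for Nefm and Nefh 0.54 and -0.21. For Nefm and Ina, r was 0.64 and 0.39, and for Nefh and Ina 0.73 and 0.25. The difference in r between genotypes was not tested. In Tecpr2 ki/ki mice the SD of Nefl (29.6) lay below its counting error (53.6). The r values of Nefl in this genotype thus rest on deviations no larger than counting error. Prph, with its low counts, had an r of -0.42 with Nefl, -0.21 with Nefm, 0.28 with Nefh and 0.18 with Ina.

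**Figure D5:**
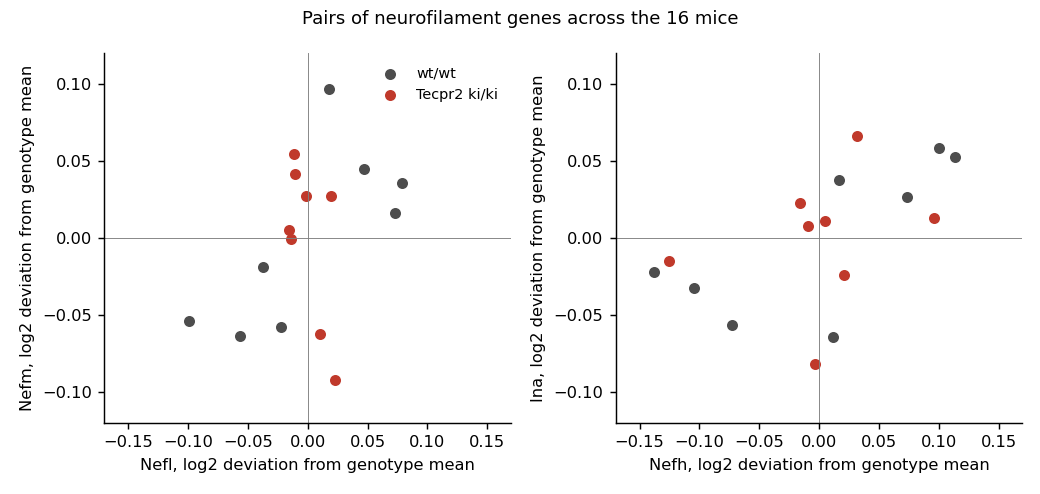
Log2 deviation from the genotype mean of Nefm against Nefl (left) and of Ina against Nefh (right); points are the 16 mice, wt/wt in grey and Tecpr2 ki/ki in red. Over all 16 mice r is 0.43 on the left and 0.55 on the right, and on the left the Tecpr2 ki/ki mice form a narrow column.

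The genes whose deviations over the 16 mice were most like those of a member, among 13699 or 13700 genes with a mean value of at least 50, came from many classes. For Nefl they were Tpt1, a translationally controlled protein gene, with r = 0.847, then Slc18b1, Ttc33, Ghitm and Sugt1, with r = 0.819 for the last. For Nefm they were E530011L22Rik (r = 0.859), Pex2, Map1s, Puf60 and Atmin, and for Nefh they were Gars, the glycyl-tRNA synthetase (r = 0.84), Ifitm10, Nutf2-ps1, 1700037H04Rik and Dcaf5. For Ina they were Spen (r = 0.848), Caskin1, Dnajb1, Jup and Rbbp9, and for Prph they were Abca3 (r = 0.865), Gm42946, Mbnl1, Gm38020 and Gm37127. No neurofilament gene was among the 5 genes most like another. Each r above was picked as one of the highest among 13699 or 13700 genes over only 16 mice and was not tested. Prph, whose counts are low, had the highest of them, so these values do not show a link between the genes named. The first principal component of the deviations, which held 12.1% of their variance, had an r of 0.458 with Nefl, 0.49 with Nefm, 0.26 with Nefh, 0.359 with Ina and -0.271 with Prph.

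Genes that carry, fold or degrade neurofilaments were set beside the members. Of 17 genes of transport, turnover and chaperones, which include the kinesin subunits that move filaments and gigaxonin, 0 passed the adjusted threshold, 10 were lower and 7 higher, and the median log2 fold change was -0.0074. At an unadjusted limma p under 0.05 there were 3 of the 17 genes (1 lower and 2 higher), where the share over all genes tested was 6.08%. The smallest p was that of Cryab, a small heat shock protein that binds intermediate filaments, with values of 549 to 643 in Tecpr2 ki/ki and 486 to 605 in wt/wt mice and a log2 fold change of 0.13 (SE 0.039, limma adjusted p = 0.404). Over the 16 mice, the summed value of this list, of which Kif5a made up 25.4%, had an r of 0.866 with Nefl and 0.416 with Nefm. The r of the same sum with Nefh was 0.0756 and that with Ina was 0.0785. The value with Nefl was the highest r of any list sum with any member. No r between a list sum and a member was tested.

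Of 21 kinases and phosphatases that act on neurofilament tails, 0 passed the adjusted threshold and 16 were lower, with a median log2 fold change of -0.022. At an unadjusted limma p under 0.05, there were 5 of the 21 genes (4 lower and 1 higher), where 3.01% of all genes tested were lower and 3.07% higher at this limit. The smallest p was that of Ppp2ca, the catalytic subunit of protein phosphatase 2A, with a log2 fold change of -0.057 (SE 0.022, limma adjusted p = 0.658), from 2692.5 ± 97.9 to 2800.9 ± 92.7 (SD, n = 8 each) in Tecpr2 ki/ki and wt/wt mice.

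Among 13 other intermediate filament genes, 1 passed the adjusted threshold. Gfap, the filament of astrocytes, had values of 1997 to 2323 in Tecpr2 ki/ki and 1300 to 1468 in wt/wt mice, which did not overlap. Its log2 fold change of 0.58 (SE 0.027, limma adjusted p = 4.67e-27) stood beside those of the neuronal filaments at -0.045 to -0.014 for Nefm, Nefh, Nefl and Ina. The other genes of this list did not pass the threshold, and the list's median was 0.0075.

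The further parts of the axonal skeleton showed small values. Of 15 axonal microtubule genes, 0 passed the adjusted threshold and 10 were lower (median log2 fold change -0.0081), and the smallest p was that of Map2, a microtubule-associated protein of dendrites, with -0.028 (SE 0.012, limma adjusted p = 0.714). Of 21 spectrin, ankyrin and node of Ranvier genes, 0 passed and 15 were lower (median -0.013), and the smallest p was that of Sptbn1, a beta spectrin, with -0.022 (SE 0.011, limma adjusted p = 0.85). At an unadjusted limma p under 0.05 there were 1 of 15 microtubule genes and 0 of 21 spectrin, ankyrin and node genes. The share over all genes tested was 6.08%. The summed values of the spectrin, ankyrin and node list had an r of 0.691 with Nefm and 0.586 with Ina over the 16 mice.

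Among markers of the neurons that are rich in neurofilament, no gene passed the adjusted threshold either. Of 10 genes of large, fast-firing neurons, 0 passed and 7 were lower (median -0.015). Scn4b, a sodium channel subunit for rapid firing, had the smallest p among them, with a log2 fold change of -0.08 (SE 0.024, limma adjusted p = 0.307). Of 8 genes of layer 5 projection neurons, 0 passed and 6 were lower (median -0.048), with the smallest p for Bcl11b, a transcription factor of corticospinal neurons that striatal neurons also express (log2 fold change -0.08, SE 0.027, limma adjusted p = 0.522). Of 10 pan-neuronal genes 7 were lower and 0 passed (median -0.027), led by Uchl1 with -0.051 (SE 0.024, limma adjusted p = 0.807). At an unadjusted limma p under 0.05 the counts were 1 of 10, 1 of 8 and 2 of 10 genes in these 3 lists. Over all genes tested 6.08% were under 0.05. Among the genes tested with a mean value of at least 500, 60.3% had a log2 fold change below 0. The unadjusted limma p was 0.0012 for Scn4b, 0.0047 for Bcl11b and 0.00199 for Cryab, all under the second limit of 0.01. Scn4b and Bcl11b were lower in the mutant, while Cryab, from the list of transport, turnover and chaperones, was higher. Hoxb4, described below, was also higher and under this limit in limma. The share of all genes tested under 0.01 is not given here, so the limit does not set the neuronal markers apart. The median log2 fold change of Nefl, Nefm, Nefh, Ina and Prph was -0.042.

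Markers of cells known for Prph were examined too. Of 11 cranial motor and cholinergic genes 9 could be tested, 5 were higher and 4 lower (median 0.014), and 0 passed; the vesicular protein gene Slc10a4 had the smallest p (limma adjusted p = 0.877). This list summed to 563 to 627 in Tecpr2 ki/ki and 568 to 650 in wt/wt mice. Of 9 sensory ganglion genes only 4 could be tested, all 4 with a log2 fold change above 0 (median 0.044) and led by Avil (limma adjusted p = 0.878), and the list summed to 55 to 88 in Tecpr2 ki/ki and 44 to 76 in wt/wt mice. Of 11 genes of the axon injury response, such as Atf3 and Gap43, 10 could be tested, 0 passed and 6 were lower (median -0.02), with the smallest p for Adcyap1 (limma adjusted p = 0.877). In these 3 lists 0 genes had an unadjusted limma p under 0.05.

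Some microglia and astrocyte genes passed the threshold with higher values in the mutant, and their part in the neurofilament values was not tested. Of 8 microglia genes, 2 passed, the complement genes C1qa and C1qb with log2 fold changes of 0.30 and 0.42 (limma adjusted p = 0.00219 and 4.72e-06), and the list summed to 2348 to 2545 in Tecpr2 ki/ki and 2078 to 2317 in wt/wt mice. Of 8 astrocyte genes, 2 passed, Aqp4 with 0.14 and Slc1a2 with 0.064 (limma adjusted p = 3.75e-05 and 0.00229), and the list summed to 63089 to 65415 and 60110 to 63484. Over all genes tested, 0.133% passed. In each of these 2 lists 7 of 8 genes were higher. At an unadjusted limma p under 0.05 there were 5 microglia and 3 astrocyte genes, all higher, where 3.07% of all genes tested were higher. Of 16 caudal Hox genes, which mark hindbrain and spinal cord, 3 could be tested, 1 had an unadjusted limma p under 0.05 and 0 passed (median 0.72). The other 13 fell short of the filter on low values. The highest mean value in the list was 6.94, for Hoxb5, so this count and median rest on 3 genes near the floor. The Hox list summed to 29 to 81 in Tecpr2 ki/ki and 18 to 45 in wt/wt mice. Hoxb4 had a log2 fold change of 1.397 (SE 0.37, limma adjusted p = 0.165, unadjusted p = 0.00033). Its values lay near the floor, at 4 to 12 in Tecpr2 ki/ki and 0 to 6 in wt/wt mice. Hoxb4 passed the filter only through the Tecpr2 ki/ki mice, where it was higher, and its fold change rests on few reads. The list's median and count include Hoxb4 and carry the same limit. Over the 16 mice the deviations of the Hox sum had an r of 0.40 with Nefl, 0.17 with Nefm, 0.49 with Nefh and 0.24 with Ina. For the astrocyte sum these values were 0.68, 0.32, -0.020 and -0.025, and for the microglia sum 0.32, 0.12, -0.20 and -0.021, in the same order.

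For the remaining cell types 0 genes passed, and at an unadjusted limma p under 0.05 there were 0 oligodendrocyte, 1 oligodendrocyte precursor, 0 endothelial and 2 choroid plexus genes. Over all genes tested the share at this limit was 6.08%. The smallest limma p was that of Cnp among 8 oligodendrocyte genes (log2 fold change -0.044, adjusted p = 0.875, list median -0.021), of Cspg4 among 3 oligodendrocyte precursor genes (0.093, adjusted p = 0.814, list median 0.0081), of Ly6c1 among 4 endothelial genes (0.085, adjusted p = 0.902, list median 0.0066) and of Ttr among 4 choroid plexus genes (-0.094, adjusted p = 0.782, list median -0.075). Over the 16 mice, summed oligodendrocyte values had an r of 0.582 with Nefm and 0.477 with Ina, beside 0.652 and 0.56 for the pan-neuronal sum and 0.604 and 0.328 for the sum of kinases and phosphatases.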

How the data were processed

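Total RNA of whole brain from 8 Tecpr2 ki/ki and 8 wt/wt mice was analysed, with groups taken from the sample labels. The authors deposited a score per gene and mouse: linear normalised values, rounded to whole numbers, whose normalization was not given in the sources used here. The submitters' processing notes name Trim Galore 0.6.10, cutadapt 3.4, STAR 2.7.10b and DESeq2 1.40.2. The table of all mice and 16 of 16 tables of single mice held identical values, and 0 columns belonged to no sample. Library factors, and the reads they imply, were estimated from the spacing of values between 20 and 400.

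Genes with a sum above 16 and a value above 5 in at least 4 mice of a genotype (23244) were fitted with limma 3.58.1 in R 4.3.3 on log2(value + 1), with genotype as the only term (eBayes with trend and robust) and Benjamini-Hochberg adjustment over all of them. A gene was called at an adjusted p under 0.1. An unadjusted limma p under 0.01 was set as a second limit. Fold changes on this scale understate the change of low genes such as Prph. Single genes were also compared by exact two-sided permutation tests over 12870 splits, using Python 3.11.15 (pandas 2.3.3, numpy 2.4.6, scipy 1.17.1, and matplotlib 3.10.9 for figures). The limma steps were tested on simulated data, where 6 of 65 genes with a log2 fold change of 0.1 in size were recovered. At 0.25 the count was 62 of 65, and at 0.5 it was 70 of 70. The differences of Nefl, Nefm, Nefh and Ina were smaller than the smallest of these, so a missed call says little about them. Intervals and counting errors cover the mice measured, 1 library each.

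The 5 genes and the 19 gene lists beside them were chosen with earlier results of these data known. A list that holds an item left out of the text is not reported here. From each list the text names every gene called or, with 0 called, the gene with the smallest p, and for each member the 5 genes most alike in Pearson r. Symbols (52017 of 55404 genes), transcripts and sequences came from the GENCODE annotation of GRCm38, whereas the authors aligned to GRCm39, and sequences were compared as words of 31 and 100 bases and in windows of 60 coding bases. Alternatives changed the pseudocount, filter, scaling, variance estimate, replicate block, covariates, length and the mice included.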

Additional observations from a re-analysis of the deposited data

How the results depend on the processing

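The log2 fold changes of the 5 members were recomputed in 129 combinations of a gene and an alternative. In all 129 the value stayed below 0 and no gene passed an adjusted p under 0.1. Leaving out 1 mouse at a time gave -0.056 to -0.031 for Nefl, -0.054 to -0.031 for Nefm, -0.06 to -0.023 for Nefh, -0.024 to -0.0027 for Ina and -0.31 to -0.17 for Prph. The lowest limma adjusted p over all alternatives was 0.592, for Nefl, and the highest for this gene was 0.953. An unadjusted limma p under 0.05, which no member had in the fit reported, was reached by Nefl in 7 of 26 alternatives (without wt/wt mouse 1, 2, 5 or 7, without Tecpr2 ki/ki mouse 6, with the replicate block and with the component below as covariate), by Nefm in 1 of 26 (without wt/wt mouse 5) and by Prph in 1 of 25 (without wt/wt mouse 8). Prph has no value among genes with a mean of at least 50. The number of genes called was 31 in the fit reported, 20 with no filter on low values and 64 when the first component of the deviations entered as a covariate, an alternative chosen after seeing the data, and it ranged from 25 to 40 when 1 mouse was left out. With the union of annotated exons as length, also chosen after seeing the data, the share of the summed level per kilobase became 42.6% for Nefl, 13.97% for Nefm, 11.7% for Nefh and 31.02% for Ina, since the union lengthens Nefm.

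The labels number the mice of both genotypes from 1 to 8, and whether the numbers pair the mice was not tested. The correlation of deviations between mice of the same number was -0.039 to 0.149 and exceeded 0.1 in 1 of 8 pairs. Of the 8 Tecpr2 ki/ki mice, 3 correlated best with the wt/wt mouse of their own number. With the replicate block, 46 genes were called, and the limma adjusted p was 0.763 for Nefl, 0.815 for Nefm, 0.867 for Nefh, 0.956 for Ina and 0.834 for Prph. Depth limits Prph most, which rests on 16 to 45 reads per library. For Nefm, Nefh and Ina the SD between mice exceeded the counting error in both genotypes. With 1 library per mouse, differences among mice and among libraries cannot be told apart, and the excess was not tested.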
